A study of Mus musculus with 55 samples.

Results

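Islands of Lamin A/C in mouse liver were compared between wild type mice and liver-specific Setd8 knockout mice given TCPOBOP. All islands of the 2 Lamin A/C lists were taken, with their coordinates and their score, which came to 1094 islands in the list of untreated wild type liver (WT) and 1153 in the list of Setd8-LKO liver, 2247 of the 173819 islands and peaks in all lists of the series. Both groups were male mice 45 to 50 days old. Setd8-LKO mice carry floxed Setd8 alleles (Setd8 lox/lox) and Alb-Cre, a recombinase driven by the albumin promoter in hepatocytes, and they received TCPOBOP, an agonist of the nuclear receptor CAR, at 3 mg/kg for 24 h. The wild type mice were labelled untreated, while the study's methods name a corn oil vehicle for controls. Genotype and treatment therefore changed together, and cannot be told apart in any comparison here. Each group had 4 Lamin A/C CUT&Tag libraries from liver nuclei, but among the wild type labels the numbers 1 and 2 occur again, and how many wild type livers were used cannot be read from them. The libraries of a group stand behind 1 list, so no spread between mice can be set against a difference between the lists, and intervals given with a share cover counting error only. The nuclei came from the whole liver, so a change within a cell type and a change in the mixture of cells cannot be told apart either.

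Lamin A and lamin C are the 2 products of the Lmna gene and form, with the B-type lamins, the protein mesh under the inner nuclear membrane. Chromatin that touches this mesh lies in lamina-associated domains (LADs), long stretches with few genes, low transcription and AT-rich sequence, which hold many gene families silent in the tissue at hand, such as odorant receptors. Setd8, encoded by Kmt5a, places the first methyl group on lysine 20 of histone H4, the substrate of the enzymes that make H4K20me3, a mark of compact chromatin. CUT&Tag cuts and tags the DNA around an antibody in intact nuclei, and the authors joined windows of 20 kb with more reads than the background into islands, which therefore begin and end on a grid of 20 kb. The score of an island adds up the evidence of its windows, so the score per window was used to compare islands of different length.

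The WT list covered 849.8 Mb, which is 31.2% of the genome, and the Setd8-LKO list 758 Mb or 27.8%. Every base pair was placed in a territory. Shared territory, in islands of both lists, came to 727 Mb. Territory of the WT list alone, called WT-only here, is either a whole lost island, an edge of an island that still overlaps a Setd8-LKO island, or a gap opened inside one. LKO-only territory was divided in the same way into gained islands, edges and closed gaps. WT-only territory came to 123 Mb and LKO-only territory to 30.9 Mb.

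The 250 bases before a RefSeq start of 7 genes are shown because the DNA of promoters differed along with the territory. They are the protein-coding genes with the largest rise or fall in RNA in their territory whose window held at most 30 exon bases. Windows were taken from RefSeq on GRCm38.p6, at the start nearest to the annotated 5′ end that placed the gene. For Tmeff2 that 5′ end is at chr1:50900647, so its window lies inside the annotated gene. Capitals mark each CG pair and each match to TATAAA on either strand, and all sequences read 5′ to 3′ towards the gene.
Sprr1a, shared territory, chr3:92485882-92486131, strand -: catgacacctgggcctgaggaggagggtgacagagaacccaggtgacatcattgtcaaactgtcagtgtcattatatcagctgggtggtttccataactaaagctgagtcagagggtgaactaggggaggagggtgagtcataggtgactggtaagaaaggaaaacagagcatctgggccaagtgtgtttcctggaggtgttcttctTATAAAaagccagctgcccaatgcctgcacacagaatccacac
Trhde, shared territory, chr10:114802303-114802552, strand -: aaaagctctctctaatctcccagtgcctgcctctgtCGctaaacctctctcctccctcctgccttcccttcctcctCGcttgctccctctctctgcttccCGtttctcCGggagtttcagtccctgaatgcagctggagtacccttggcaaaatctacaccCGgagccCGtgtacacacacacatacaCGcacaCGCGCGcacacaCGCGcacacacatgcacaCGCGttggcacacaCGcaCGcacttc
Tmeff2, WT-only lost island territory, chr1:50927273-50927522, strand +: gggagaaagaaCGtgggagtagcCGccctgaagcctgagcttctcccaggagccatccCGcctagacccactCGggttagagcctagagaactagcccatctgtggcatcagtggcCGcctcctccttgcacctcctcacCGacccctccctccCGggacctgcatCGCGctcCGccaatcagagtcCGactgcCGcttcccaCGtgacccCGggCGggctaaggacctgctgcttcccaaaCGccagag
Cenpe, WT-only edge territory, chr3:135212313-135212562, strand +: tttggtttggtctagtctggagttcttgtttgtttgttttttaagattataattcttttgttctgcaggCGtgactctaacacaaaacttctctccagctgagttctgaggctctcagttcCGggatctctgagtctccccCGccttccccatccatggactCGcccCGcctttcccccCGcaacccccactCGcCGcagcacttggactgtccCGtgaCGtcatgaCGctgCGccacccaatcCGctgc
Fmn2, WT-only edge territory, chr1:174501575-174501824, strand +: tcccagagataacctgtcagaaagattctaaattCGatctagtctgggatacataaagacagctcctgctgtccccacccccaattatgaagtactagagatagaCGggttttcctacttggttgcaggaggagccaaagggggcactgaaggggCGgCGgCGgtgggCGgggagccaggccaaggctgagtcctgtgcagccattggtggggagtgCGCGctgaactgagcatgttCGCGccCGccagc
Nuf2, WT-only gap territory, chr1:169531465-169531714, strand -: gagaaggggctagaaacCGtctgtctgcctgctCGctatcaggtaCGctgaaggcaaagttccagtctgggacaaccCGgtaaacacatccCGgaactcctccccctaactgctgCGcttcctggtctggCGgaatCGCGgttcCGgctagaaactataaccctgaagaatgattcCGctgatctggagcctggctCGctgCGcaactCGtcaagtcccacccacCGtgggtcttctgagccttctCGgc
Flrt2, LKO-only edge territory, chr12:95691976-95692225, strand +: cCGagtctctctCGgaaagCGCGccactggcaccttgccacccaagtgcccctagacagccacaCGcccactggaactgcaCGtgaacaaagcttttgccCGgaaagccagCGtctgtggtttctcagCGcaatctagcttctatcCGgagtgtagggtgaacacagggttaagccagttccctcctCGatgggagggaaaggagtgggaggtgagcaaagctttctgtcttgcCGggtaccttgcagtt
The window of Sprr1a, a cornified envelope protein of epithelia, held 0 CG pairs and a TATAAA that starts 43 bases before the RefSeq start. The other 6 windows held between 11 and 16 CG pairs and no TATAAA on either strand.

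RefSeq windows were matched by symbol for 16454 of 21951 protein-coding genes. Promoters of shared territory were poor in CG pairs, with a median of 1 per 250 bases over 1542 genes, against 12 over 14440 genes outside all islands. WT-only promoters lay between the 2, with a median of 5 over 408 genes, and so did LKO-only promoters, with a median of 5 over 64 genes. No CG pair was found in 29.1% of shared, 15.9% of WT-only, 10.9% of LKO-only and 4.38% of outside windows. The letters TATAAA, searched on both strands over the 250 bases, were present in 32.5% of shared, 18.6% of WT-only and 9.52% of outside windows, and in 11.9% of all windows. The territory as a whole followed the same order, with a GC content of 38.5% in shared, 39.9% in WT-only, 40.7% in LKO-only and 43.4% in outside DNA of the 19 chromosomes that carry islands. Soft-masked repeats made up 38.8% of shared and 35.3% of WT-only DNA, and 39.5% of the gaps.

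Of the 1094 WT islands, 194 had no overlapping base in the Setd8-LKO list (17.7%, Clopper-Pearson 15.5 to 20.1%). Of the 1153 Setd8-LKO islands, 54 had none in the WT list (4.68%, 3.54 to 6.07%). Lost islands were 1 of 3 sources of WT-only base pairs. Edges of islands that were kept made up 57.4 Mb or 46.6% of WT-only territory, lost islands 49.0 Mb or 39.8%, and opened gaps 16.7 Mb or 13.6%. The order of the first 2 turned without the lowest 25% of each list by score, with 43.6% in edges and 44.9% in lost islands. On the other side, edges made up 17.8 Mb or 57.6% of LKO-only territory, gained islands 10.2 Mb or 33.2%, and closed gaps 2.86 Mb or 9.26%. The same division of the H4K20me3 islands gave 38.4% lost islands, 47.1% edges and 14.5% gaps of 138 Mb in WT alone, and 57.4% gained islands, 33.7% edges and 8.87% gaps of 53.2 Mb in Setd8-LKO alone. The WT-only sides of both marks thus had a like division, while gained islands took a larger share in H4K20me3.

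Loss fell on short islands of low score. Under 100 kb, 11 of 26 WT islands were lost (42.3%, 23.4 to 63.1%), and from 100 to under 200 kb 62 of 144 (43.1%, 34.8 to 51.6%). The share was 26.8% of 399 islands from 200 to under 500 kb (22.5 to 31.5%) and 5.47% of 256 from 500 kb to under 1 Mb (3.02 to 9.01%). None of 179 islands from 1 to under 2 Mb and none of 90 longer ones was lost, which allows shares of up to 2.04% and 4.02%. When WT islands were ordered by score per window, 146 of the 274 weakest were lost (53.3%, 47.2 to 59.3%), then 44 of 273 (16.1%), 4 of 273 (1.47%) and 0 of the 274 strongest, which allows up to 1.34%. Lost islands had a median length of 220 kb and a median score of 7.08 per window, against 580 kb and 21.8 for kept islands. Gained islands had the same profile in the other list, with a median of 180 kb and 6.21 per window against 420 kb and 13.1. Weak islands were thus the ones without a match in both lists. A Setd8-LKO island lay at a distance of 100 kb or less from 43 of the 194 lost islands, and 63 were over 1 Mb from any. Without the lowest 25% of each list by score, 85.5% of 820 WT islands were kept and 4.05% of 864 Setd8-LKO islands were gained. The 2 lists also differed in how much they covered. When the weakest WT islands by score per window were left out until both lists covered the same length, an alternative chosen after seeing the data, 95.1% of 793 WT islands were kept and 17.1% of the Setd8-LKO islands had no match. This cut removes from 1 list the kind of island that was lost, so its direction was fixed in advance.

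**Figure D1:**
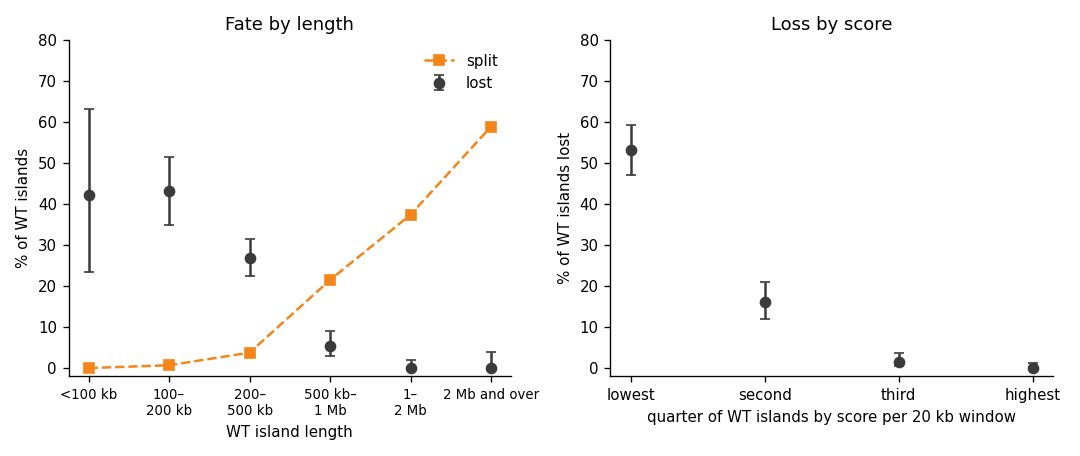
Left, the share of WT Lamin A/C islands lost (points with 95% Clopper-Pearson bars) and split (squares, without bars) against island length in 6 classes. Right, the share lost in 4 equal groups of WT islands ordered by score per 20 kb window, from 53.3% in the lowest to 0 in the highest.

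Among WT islands of 1 Mb and over, many were split and none was lost. Both counts depend on length, since a longer island has more windows that can overlap and more room for a gap. The share of WT base pairs kept, which counts each base alike, was 55.8% under 100 kb and 50.0% from 100 to under 200 kb. It was 96.2% in islands of 2 Mb and over. In the Setd8-LKO list 191 WT islands overlapped 2 or more islands, 447 in all, with 138 in 2 parts, 44 in 3 and 9 in 4 or more. No island under 100 kb was split and 1 of 144 from 100 to under 200 kb, against 21.5% from 500 kb to under 1 Mb, 37.4% from 1 to under 2 Mb and 58.9% of the 90 islands of 2 Mb and over. The reverse, a Setd8-LKO island that joins 2 or more WT islands, was seen 51 times. The 256 opened gaps were mostly narrow: 168 were 40 kb wide, the smallest gap that the calling allows, 31 were over 100 kb, and the widest was 380 kb. Joining islands of each list over at most 60 kb left 98 split WT islands and 19 joining ones.

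The island split most was chr6:129680001-131080000, 1400 kb with a score of 2745, which came apart into 6 Setd8-LKO islands. It holds the 5′ ends of 14 protein-coding genes, most of them Klra and Klri genes, which encode lectin-like receptors of natural killer cells. Klra10, Klra3 and Gm156 lay in opened gaps, while Klra1, Klra4 to Klra9 and Klra17 stayed in the parts. This family consists of near-identical copies, and the authors kept only uniquely mapped reads (mapping quality over 30), so gaps here may also be stretches with few mappable reads, which was not tested. The next was a 1620 kb island on chromosome 18 with Klhl14, Ccdc178, Asxl3 and Nol4, of which 58.0% remained in 5 parts. Islands at chr13:76260001-77560000 with Mctp1 and Slf1, at chr3:55180001-56520000 with Dclk1, Nbea and Mab21l1, and at chr15:18940001-20480000 with the 5′ end of Cdh12 came apart into 4 parts each and kept 87.7%, 88.1% and 83.1%. In the chromosome 3 island, gaps held the 5′ ends of Nbea, a scaffold protein of neurons, and of Mab21l1, which lies within Nbea.

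Edges were compared in the 631 pairs in which a WT and a Setd8-LKO island overlapped only each other. Of their 1262 edges, 561 did not move (44.5%), 485 moved inward, that is into the WT island (38.4%), and 216 moved outward (17.1%). Inward moves were thus 69.2% of the moved edges (65.6 to 72.6%), and the left and right edges gave nearly the same numbers, with 242 and 243 inward moves. Most shifts were small. The median inward shift was 60 kb and the median outward shift 40 kb, and 149 inward and 82 outward shifts were a single window of 20 kb. Inward moves were 84.0% of the shifts of over 100 kb. The excess was not seen in the longest islands: in pairs with a WT island of 2 Mb and over, 24 edges moved inward and 23 outward, which is 51.1% inward (36.1 to 65.9%), against 69.8%, 72.8% and 74.0% in the 3 classes from 200 kb to under 2 Mb. Short islands gave 57.1% under 100 kb (18.4 to 90.1%) and 60.4% from 100 to under 200 kb (46.0 to 73.5%), intervals that include an equal split. In all, the Setd8-LKO island was shorter in 338 pairs, of equal length in 140 and longer in 153. Its score per window was lower in 571 of the 631 pairs, with a median ratio to WT of 0.670. These values cover all pairs, and the 130 pairs with both edges unmoved were not read apart. The lists were made from reads reduced to a common depth, and a difference in the share of reads that fall into islands can lower scores, shorten islands and drop weak ones together; whether it did was not tested.

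**Figure D2:**
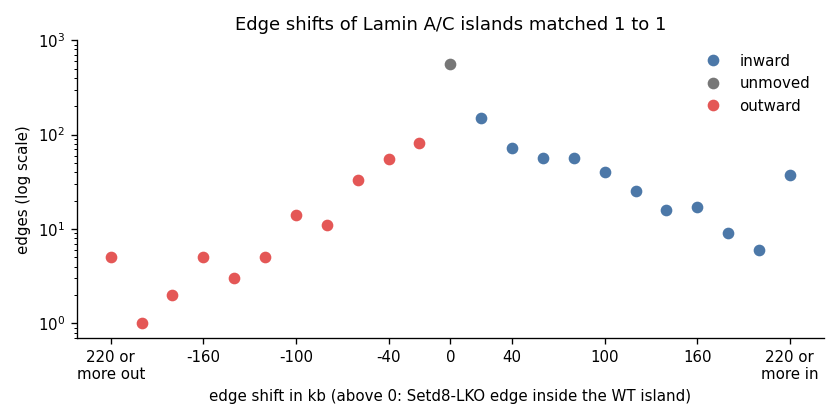
The number of edges (log scale) against the shift of the edge in kb, for 1262 edges of 631 pairs of Lamin A/C islands matched 1 to 1. The outermost points pool 5 outward and 37 inward shifts of 220 kb or more, and inward points lie above outward points of like size.

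The largest inward shifts removed most of an island. The right edge of chr12:5740001-7420000 moved by 1340 kb and left an island of 300 kb, in a stretch with no protein-coding gene. The right edge of chr15:15560001-17140000 moved by 1040 kb, past Cdh9, a cadherin of neurons. The left edge of chr7:123560001-124360000 moved by 640 kb, past the 5′ end of Hs3st4, a heparan sulfate sulfotransferase, and that of chr12:14240001-15500000 by 520 kb, while the right edge of chr6:14820001-15540000 moved by 520 kb through the body of Foxp2, whose 5′ end stayed in the island. The largest outward shifts were 340 kb at chr11:19140001-19400000, 300 kb at chr3:139420001-141880000 with Pdha2 and Unc5c, 260 kb at chr7:50140001-50940000, 240 kb at chr16:39140001-40920000 with Lsamp, and 220 kb at chr5:9420001-10860000 with Grm3.

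The 5 lost islands with the highest score were long. The first, chr8:112180001-113080000, had a score of 547 over 900 kb and holds Cntnap4, a neurexin-like protein of synapses. A 500 kb island on chromosome 18 without a gene, and a 520 kb island there with Mc4r, the melanocortin 4 receptor, had scores of 426 and 336. The other 2 lie on chromosome 1. One, chr1:161560001-162540000, had a score of 391 and holds Fasl, the ligand of the death receptor Fas, with Suco, Pigc and Dnm3. The other, chr1:137560001-138220000, had a score of 295 and holds Ptprc, which encodes the leukocyte surface phosphatase CD45. The gained islands of highest score had scores from 105 to 179.7 and lengths from 120 to 400 kb. They were chr7:38280001-38400000 without a gene, chr4:114300001-114600000 with Trabd2b, chr7:7340001-7540000 with Vmn2r31 and Vmn2r32, chr8:14340001-14720000 within the body of Dlgap2, and chr11:17520001-17920000 without a gene.

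The loss was unequal between chromosomes. Islands were listed on 19 chromosomes, with none on chromosomes 19 and Y in either list, and the Setd8-LKO list covered fewer Mb on all 19. The share of WT base pairs kept had a median of 86.5% and was highest on chromosomes 17 and 5, at 93.8% and 90.5%. It was lowest on chromosomes X and 18, at 39.6% and 66.7%. The other 17 chromosomes kept between 82.6% and 93.8%. The X chromosome had little to lose, since its 27 WT islands covered 8.94 Mb or 5.23% of its length, while 35.4% of chromosome 18 was covered. On chromosome 18 the covered length went from 32.1 to 22.0 Mb, 21 of 49 WT islands were lost (42.9%), and 0 were gained. In the other lists chromosome 18 was nearer to the rest. Its Setd8-LKO H4K20me3 islands covered 82.9% of the WT length, a share that was lower on chromosomes 2, 3, 9 and 12. Its Setd8-LKO peaks numbered 92.8% of the WT peaks for H3K27ac, the lowest value among the autosomes, whose others ran from 93.9% to 107%, and 86.2% for ATAC-seq, against 78.4% to 91.3%. Its tested genes had a median log2 difference in RNA of 1.05, against 1.16 over all tested genes.

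**Figure D3:**
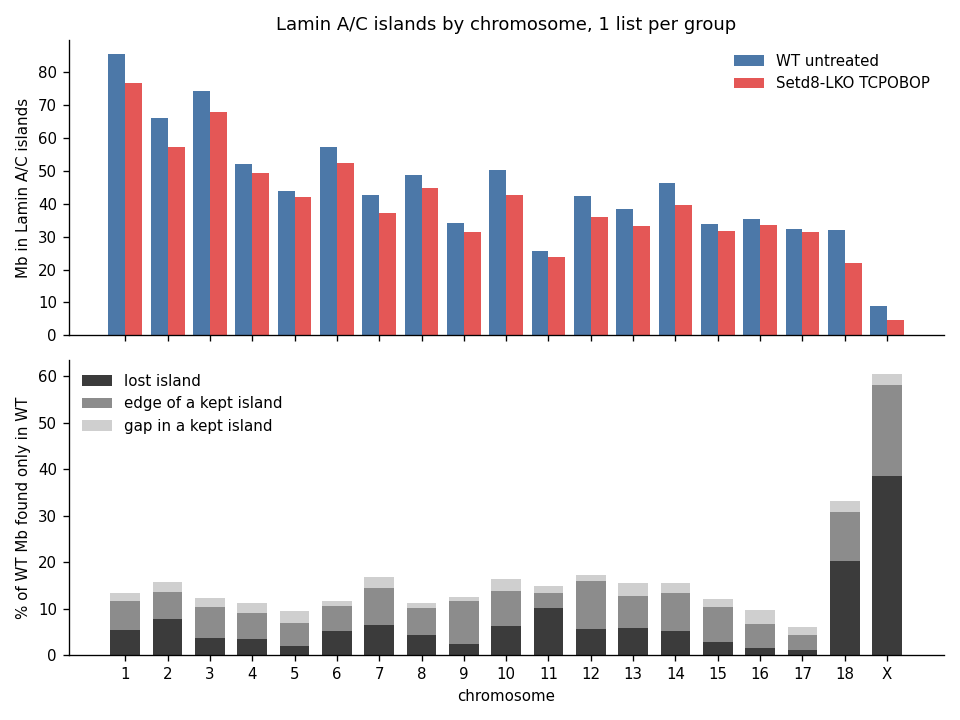
Top, Mb in Lamin A/C islands of the WT and the Setd8-LKO list on the 19 chromosomes with islands. Bottom, the share of the WT Mb found only in WT, divided into lost islands, edges and gaps, which is largest on X and on chromosome 18, where 39.6% and 66.7% of the WT length was kept.

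The other marks of the series were read by territory, each from 1 list per group, with peaks placed by their midpoint. H4K20me3 islands of the WT list covered 78.8% of shared Lamin A/C territory, 35.6% of WT-only, 24.0% of LKO-only and 5.41% of outside DNA. In the Setd8-LKO list the shares were 67.7% in shared, 21.6% in LKO-only and 6.21% in outside DNA, with 19.2% in lost islands, 21.2% in WT-only edges and 25.1% in gaps. The largest relative change was in lost Lamin A/C islands, where H4K20me3 coverage went from 38.1% to 19.2%. In gained islands it was 28.3% and 27.5%. An H4K20me3 island of the WT list touched 83.7% of the kept and 48.5% of the lost WT Lamin A/C islands.

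Marks of active regulatory DNA were scarce in shared territory and more frequent in territory of 1 list alone, WT-only as well as LKO-only. H3K27ac, found at active promoters and enhancers, had 231 WT peaks in shared territory, or 0.318 per Mb, 243 in WT-only territory, or 1.97 per Mb, and 15.6 per Mb outside. Within WT-only territory the density was 0.980 per Mb in lost islands, 2.42 in edges and 3.35 in gaps. Open chromatin by ATAC-seq had the same order, with 0.400 WT peaks per Mb in shared territory, 1.45 in lost islands, 3.57 in edges, 4.60 in gaps and 15.1 outside. LKO-only territory had 0.907 H3K27ac and 2.33 ATAC-seq peaks per Mb in the WT lists, against 1.97 and 2.87 in WT-only territory. WT-only territory thus held peaks at these densities in WT, where this DNA lay inside a Lamin A/C island. Peaks were counted by list, and whether those of the 2 lists lie at the same sites was not compared. In Setd8-LKO, H3K27ac peaks numbered 446 in shared and 316 in WT-only territory, while their number on all 19 chromosomes was 26686 against 26925 in WT. ATAC-seq peaks numbered 275 in shared and 355 in WT-only territory, against 291 and 353 in WT, while on the 19 chromosomes they went from 26345 to 22596. Peaks of CTCF, which bounds chromatin loops, and of the cohesin subunit Smc3 were more numerous throughout in the Setd8-LKO lists, at 20190 against 5626 and 20878 against 12535. For CTCF they went from 125 to 1201 in shared and from 73 to 395 in WT-only territory, and for Smc3 from 134 to 800 and from 114 to 387. Since each assay has 1 list per group, none of these differences has a test, and a difference in the quality of a library could not be told apart from one in the chromatin.

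Peaks near the edges of WT islands were read against what the edge did. Just inside the edge, in the first 40 kb, edges that lay further inward in the Setd8-LKO list had 87 WT ATAC-seq peaks or 4.48 per Mb. Unmoved edges had 22 or 0.980 per Mb, and edges that moved outward had 10 or 1.16 per Mb. Deeper inside, from 100 to 200 kb, the 3 kinds of edge had 0.895, 0.664 and 0.244 per Mb. WT H3K27ac peaks gave 3.20, 0.357 and 0.463 per Mb in the first 40 kb inside. In the Setd8-LKO lists the same zone had 4.38, 0.713 and 0.926 ATAC-seq peaks per Mb and 3.61, 0.579 and 1.27 H3K27ac peaks per Mb. Outside the island the densities rose with distance for all 3 kinds, to between 10.4 and 11.5 per Mb for ATAC-seq from 100 to 200 kb in both lists. In the first 40 kb outside, WT ATAC-seq peaks were at 4.48 per Mb for inward edges, 2.14 for unmoved and 2.55 for outward ones, so the kinds of edge differed on both sides of the WT edge, and by more inside it.

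**Figure D4:**
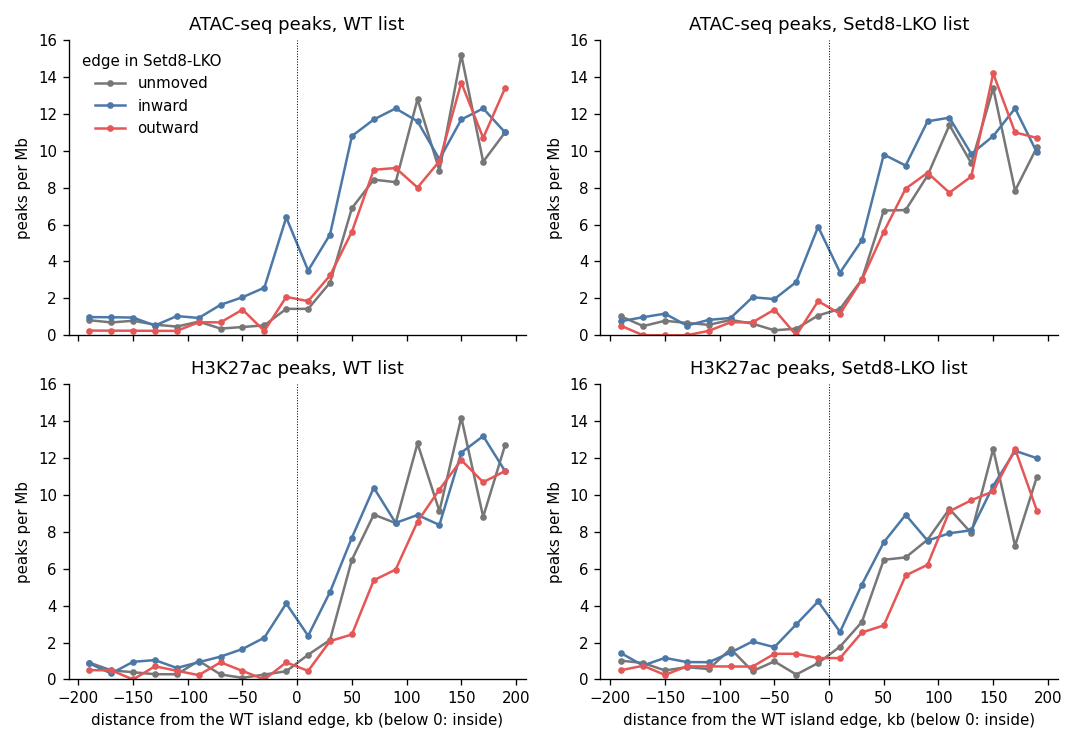
Peaks per Mb of ATAC-seq (top) and H3K27ac (bottom) in the WT (left) and Setd8-LKO (right) lists against the distance from the WT island edge in kb, in bins of 20 kb, for edges that moved inward, outward or not. Inward edges have more peaks on both sides close to the edge, with 4.48 per Mb in the first 40 kb for WT ATAC-seq against 0.980 at unmoved edges.

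Genes were placed by their 5′ end in the GENCODE M21 annotation. WT islands held 2604 of 21951 protein-coding genes (11.9%) and Setd8-LKO islands 2125 (9.68%). Of these, 2034 were shared, 570 were WT-only, with 182 in lost islands, 299 in edges and 89 in gaps, and 91 were LKO-only, with 42 in gained islands, 44 in edges and 5 in closed gaps. Edges and gaps of the WT list were richer in genes than the shared territory, with 5.21 and 5.32 per Mb against 2.80, and lost islands had 3.72, while DNA outside had 10.8. Of the lost WT islands 38.1% touched no protein-coding gene at all, against 27.4% of kept ones. For gained Setd8-LKO islands it was 51.9%, against 32.8% of kept ones. Lost and gained islands were also shorter, with medians of 220 and 180 kb against 580 and 420 kb, and so had less room to touch a gene.

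Several gene families of other tissues lay largely in the islands, and several families of hepatocyte metabolism had no member there. Of 1135 odorant receptor genes (Olfr), 772 lay in WT islands (68.0%) and 703 in Setd8-LKO islands (61.9%). WT-only odorant receptors numbered 72, with 14 in lost islands, 42 in edges and 16 in gaps. The largest group was 11 genes, among them Olfr1039 and Olfr1049, at chr2:86120001-86260000, a 140 kb edge of an island of 1760 kb. On chromosome 14, the island chr14:49660001-50340000 lost 460 kb with Olfr722 to Olfr726 on one side and 100 kb with Olfr731 to Olfr734 on the other. A lost island of 100 kb, chr10:129080001-129180000, held Olfr767 to Olfr772. Vomeronasal receptors, which detect pheromones, went from 159 to 127 of 331, with 13 in a row, Vmn1r167 to Vmn1r179, in a 460 kb edge at chr7:23480001-23940000. These families have many near-identical copies, and reads of low mapping quality were removed, so the placement of single members is uncertain; how far this affects the counts was not tested. By contrast, 0 of 96 cytochrome P450, 0 of 21 UDP-glucuronosyltransferase and 0 of 22 major urinary protein genes lay in an island of either list, and the same held for 21 hepatocyte markers, 66 histone genes and 39 Hox genes. Not every family active in liver was outside, since 1 of 21 sulfotransferases lay in shared territory, and of 50 serpins, many of them plasma proteins, 15 lay in WT and 14 in Setd8-LKO islands.

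The counts of protocadherins and of defensins in islands changed in opposite directions, each mainly through a single gene cluster. Protocadherins and cadherins, which join cells to each other, went from 41 to 14 of 97 genes in islands, the largest relative loss among the families with 10 or more genes in WT islands. Of these, 24 lay in 2 neighbouring lost islands on chromosome 18, of 280 and 120 kb with scores of 159 and 82.5, which held Pcdhac1, Pcdhac2 and Pcdhb1 to Pcdhb22. Their 5′ ends were in no Setd8-LKO island. Chromosome 18 as a whole lost 42.9% of its WT islands. Pcdh17 and Cdh9 lay in edges and Pcdh7 in a gap. Defensins, antimicrobial peptides of epithelia, rose from 21 to 29 of 64 genes. A gained island of 280 kb, chr8:21680001-21960000, held 10 of them, Defa24, Defb1, Defb2, Defb9, Defb10, Defb11, Defb13, Defb15, Defb35 and Defb50. Its score was 54.6, or 3.90 per window, within the lowest 25% of Setd8-LKO islands, which ran from 2.87 to 8.05 per window. Defa22 and Defa35 lay in WT-only edges. Among natural killer receptors (Klr), Klrd1 and Klrk1 lay in a gained island and Klra3 and Klra10 in gaps, so that each list held 12 of 26, with 10 of them shared. Zinc finger genes (Zfp) went from 12 to 5 of 394 and solute carriers from 25 to 18 of 371. Glutamate receptors, with 11 of 28, were the same in both lists.

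RNA-seq was set beside the islands from 5 untreated wild type and 4 Setd8-LKO TCPOBOP livers, the same conditions as the Lamin A/C libraries. The table lists 3900 genes that the authors selected for a difference between these libraries, so it does not describe unselected genes, and the direction of a listed gene is not independent of that choice. RNA came from the whole liver, and fewer cells of a type cannot be told apart from less RNA per cell. Kmt5a, the targeted gene, had 649, 601, 806, 596 and 757 normalized counts in WT and 1420, 1551, 1417 and 1389 in the libraries labelled Setd8-LKO, a log2 difference of 1.08 ± 0.14 (SE; edgeR adjusted p = 4.52e-04). Its counts were higher in all 4, although only exon 7 is floxed, so that counts over the whole gene do not check the deletion and the groups are named by their labels. Lmna had 807, 909.7, 795, 1047 and 712 in WT and 2012, 1779, 2024 and 2290.0 in the libraries labelled Setd8-LKO (log2 difference 1.25 ± 0.15, edgeR adjusted p = 3.09e-04). Both genes lay outside the islands of both lists, and for neither did the groups overlap. With size factors computed over the listed genes instead of the authors' scaling, the log2 differences were 0.27 and 0.44 and neither was called. For each gene p was 0.00794 in an exact permutation test (two-sided), the smallest that 5 against 4 libraries allow.

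Few genes of the islands were among those listed. Of the protein-coding genes, 6.05% of shared, 9.12% of WT-only, 6.59% of LKO-only and 14.5% of outside genes were listed, against 13.6% of all. In the test, 50.5% of the 3726 tested genes were called higher and 34.6% lower, 85.1% in all (edgeR adjusted p under 0.05 and an absolute log2 difference of at least 1). In WT-only territory 48 of 73 tested genes were higher and 11 lower, or 65.8% and 15.1%, with a median log2 difference of 1.45, against 1.16 over all tested genes. Shared territory gave 97 higher (60.2%) and 29 lower of 161, with a median of 1.52. The excess of higher calls over the background was thus found in shared territory as well as where the island was lost. Measured against all annotated protein-coding genes, 6.14% of WT-only genes were called higher, close to the 6.95% of all genes and above the 3.59% of shared genes, and 1.05% were called lower, against 4.33% of all. Within WT-only territory the shares called higher were 4.40% in lost islands, 7.36% in edges and 5.62% in gaps. LKO-only territory had 7 tested genes, 4 of them higher. With size factors taken from the listed genes themselves all differences moved by -0.82 (log2), and the calls became 36.8% higher in place of 59.3%. The counts of higher genes were then 54 in shared and 19 in WT-only territory, so directions are relative to the authors' scaling.

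In lost islands the largest rises were in Peg3, the antisense RNA Gm11802, Malrd1, Col1a2 and Col4a4, from 1.91 to 2.65 on the log2 scale. Peg3, an imprinted zinc finger gene expressed from the paternal allele, had 122, 88.8, 289.6, 211 and 311 normalized counts in WT and 1233, 1382, 1673 and 871 in the libraries labelled Setd8-LKO (log2 difference 2.65 ± 0.36, edgeR adjusted p = 6.86e-04). All 4 values lay above all WT values, which was a condition for naming the gene, and the groups did not overlap in 87.4% of all tested genes. Within the runs labelled A and B the log2 differences were 1.70 and 3.75. Run A held 1 library labelled Setd8-LKO, and the labels do not say what a run was. The 280 kb lost island of Peg3, chr7:6460001-6740000, also held 6 odorant receptors, Olfr5 and Olfr1346 to Olfr1350. The 5′ end of Peg3 stayed in an H4K20me3 island in both lists and had an H3K27ac peak in both. Col1a2, a chain of type I collagen made by stellate cells and fibroblasts, had 366, 213, 404, 339.9 and 387 in WT and 2112, 1944, 815 and 1124 in the libraries labelled Setd8-LKO (2.13 ± 0.30, edgeR adjusted p = 7.68e-04). Its lost island was 260 kb long and the next Setd8-LKO edge was 2615 kb away. The listed stellate cell markers rose with it. Of 8 markers 4 were listed, Col3a1, Dcn, Col1a1 and Pdgfrb, and all 4 were called higher, against 50.5% of all tested genes. Lrat, Reln, Des and Acta2 were not listed. The summed level of the 4 listed markers was 2192 to 3291 in WT and 5403 to 12388 in the libraries labelled Setd8-LKO. Their part in the result was not tested. Col4a4 lost its call when any 1 of 7 libraries was left out. Malrd1 and the pseudogene Gm13365 had their 5′ ends in the same lost island of 220 kb on chromosome 2 and went opposite ways. Malrd1, linked to bile acid control in the intestine, rose by 2.15 ± 0.27 on the log2 scale. Gm13365 had 24.7, 42.4, 39.2, 50.1 and 32.9 in WT and 0 in all 4 libraries labelled Setd8-LKO, at least 12.6-fold lower against a floor of 3 counts per library. Tmeff2, Gm5182 and Gm20300 had log2 differences from -3.21 to -1.26.

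In edges the largest rise was that of Cenpe and in gaps that of Nuf2, both genes of cell division. Whether genes of cell division were more frequent there than in other territory was not tested. Cenpe, a kinetochore motor protein, had 1.12, 3.98, 8.71, 3.27 and 10.6 in WT and 201, 172, 229 and 92.3 in the libraries labelled Setd8-LKO (4.94 ± 0.47, edgeR adjusted p = 6.56e-05). Its 5′ end lay in a 100 kb edge, 27 kb inside the WT edge and 73 kb from the Setd8-LKO edge, with an H3K27ac peak in both lists. Nuf2, a subunit of the Ndc80 kinetochore complex, had 1.12, 2.65, 7.62, 4.36 and 15.3 in WT and 132, 163, 153 and 95.9 in the libraries labelled Setd8-LKO (4.42 ± 0.48, edgeR adjusted p = 1.54e-04). It lay in a gap of 40 kb, 191 kb from the nearest WT edge, and had an ATAC-seq peak in both lists and an H3K27ac peak in the WT list alone. The groups of both genes did not overlap, which was a condition for naming them and was also true of 87.4% of all tested genes. Other rises in edges were Gm50410, Npnt (nephronectin, a matrix protein), Atp10a and 4930533K18Rik, from 3.29 to 4.61 on the log2 scale. In gaps they were Gm43549, Stap1, Pcdh7 and Elmo1, from 1.25 to 3.05. Pcdh7 lost its call without WT library 1 or 5 or the libraries 1, 2 or 4 labelled Setd8-LKO, and Elmo1 without WT library 2, 4 or 5 or the same 3 labelled Setd8-LKO. Falls in edges were smaller, with log2 differences from -1.71 to -1.17, in Gm9847, Serpine2, Fmn2, Chchd7 and Gm45769. Gm9847 lost its call without WT library 1, 3 or 4, and Fmn2 without WT library 1. Both lost it without library 1 or 2 labelled Setd8-LKO and with the run label as a term. Serpine2, an inhibitor of serine proteases, had 134, 206, 204, 135 and 148 in WT and 59.8, 48.9, 47.8 and 45.3 in the libraries labelled Setd8-LKO (-1.71 ± 0.22, edgeR adjusted p = 4.23e-04).

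Among the genes that stayed in islands of both lists, the largest rise was that of Sprr1a. This gene, whose CG-free promoter is shown above, had 0, 0, 2.18, 5.45 and 0 in WT and 1819, 1462, 219.8 and 821 in the libraries labelled Setd8-LKO, within a shared stretch of 760 kb on chromosome 3 (9.29 ± 0.86, edgeR adjusted p = 5.85e-05). Epdr1, an ependymin-related lysosomal protein, rose by 5.98 ± 0.29 on the log2 scale. Vmn2r3 had 3 counts over the WT libraries and 442 over the libraries labelled Setd8-LKO, and Ighg2b, an immunoglobulin constant region of B cells, had 3 and 197. The B cell marker Cd79b went the other way, with 12.4, 23.9, 42.5, 15.3 and 31.7 normalized counts in WT and 6.46, 6.63, 7.96 and 6.34 in the libraries labelled Setd8-LKO (-1.86 ± 0.40, edgeR adjusted p = 0.0142). The pseudogene Ccnb1-ps rose as well, and shares sequence with the cyclin gene Ccnb1, so reads of the 2 may not be told apart. Nox4, an NADPH oxidase that makes hydrogen peroxide, had 1005, 789, 419, 507 and 584 in WT and 40.4, 27.4, 40.6 and 29.0 in the libraries labelled Setd8-LKO (-4.26 ± 0.31, edgeR adjusted p = 1.51e-05). Its 5′ end was 6 kb inside a WT edge, in a shared stretch of 920 kb, and the nearest edge of the Setd8-LKO island, which ran past the WT edge, was 914 kb away. Trhde, the peptidase that degrades thyrotropin-releasing hormone, had 78.6, 59.7, 61.0, 29.4 and 51.6 in WT and 3.23, 2.49, 3.19 and 1.81 in the libraries labelled Setd8-LKO (-4.32 ± 0.38, edgeR adjusted p = 4.44e-05), in a shared stretch of 2000 kb. Elavl4, Gm5096 and AC161520.1 fell too. Of the 10 shared genes named, 5 lay in H4K20me3 islands in each list and none had an ATAC-seq peak within 1 kb of its 5′ end in either list.

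Where the Setd8-LKO list gained territory, 4 genes were called higher. Defb1, a beta defensin of epithelia, lay in the gained island of the defensin cluster and had 15.7, 10.6, 8.71, 8.72 and 15.3 in WT and 30.7, 43.9, 33.4 and 59.7 in the libraries labelled Setd8-LKO (1.82 ± 0.31, edgeR adjusted p = 0.00289). The gene rose inside an island found in Setd8-LKO alone. Its values did not overlap, which was a condition for naming it and held for 87.4% of all tested genes. Gm48362, Flrt2, an adhesion protein of neurons and muscle, and Ctnnd2, a catenin of neurons, lay in LKO-only edges and rose by 1.49, 1.41 and 1.34 on the log2 scale. Under size factors computed over the listed genes none of the 4 was called, with Defb1 at 1.01 on the log2 scale, and Flrt2 and Ctnnd2 lost their calls when any library but the third labelled Setd8-LKO was left out. Listed hepatocyte markers moved the other way over the same libraries, with 13 of 22 listed, 11 lower and 1 higher, and a summed level of 1472668 to 2376129.5 in WT and 766401 to 1051219 in the libraries labelled Setd8-LKO. Cholangiocyte markers were higher in 5 of 7 listed, at 475 to 747 and 1742 to 7986. Fetal liver and progenitor markers were higher in 5 of 6 listed, at 78.2 to 167 and 683 to 8299.7. Neutrophil and monocyte markers were higher in 2 of 4 listed, at 22.5 to 158 and 138 to 276. Over all tested genes 50.5% were called higher and 34.6% lower, and the 2 of 4 lies near that first share. The 1 listed Kupffer cell marker, Marco, was not called. Of 2 listed B cell markers 1 was called lower, at a summed level of 25.1 to 69.7 in WT and 10.3 to 15.4 in the libraries labelled Setd8-LKO. No endothelial marker and no T or natural killer cell marker was listed. The part of cell composition in the RNA differences was not tested.

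**Figure D5:**
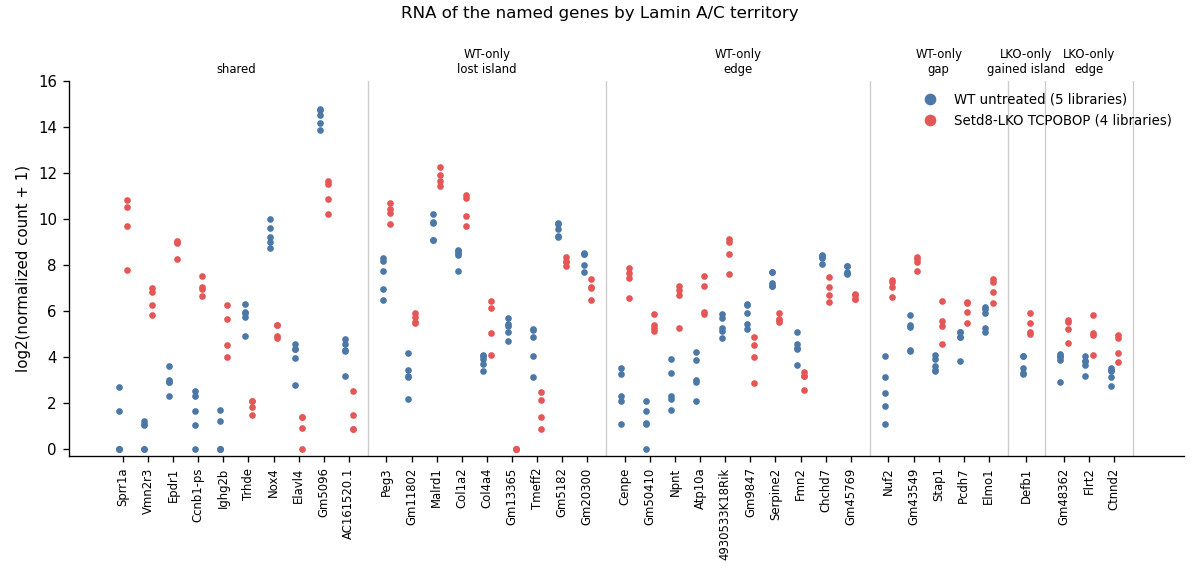
RNA of the named genes in each Lamin A/C territory, as log2(normalized count + 1) per library, with 5 WT and 4 Setd8-LKO points per gene. The genes were chosen for the largest differences in their territory, from 161 tested genes in shared and 73 in WT-only territory. Their sizes therefore do not compare the territories.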

How the data were processed

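Lamin A/C and H4K20me3 CUT&Tag reads were trimmed with Trimmomatic 0.39, aligned to mm10 with HISAT2, deduplicated and kept at a mapping quality over 30, and the authors called islands with SICER2 on downsampled reads in windows and gaps of 20000 bases. The deposited lists hold coordinates and a score per island, 1 list per group, and how libraries were combined is not given in the sources used here. H3K27ac, ATAC-seq, CTCF and Smc3 peaks were called by the authors with MACS2 2.2.7.1, and the deposited −log10 p values served only as an alternative threshold of 20. The deposited RNA table holds raw counts and normalized values, and its columns of the authors' own comparisons were not used. The table lists only 3900 selected genes, so the depth of each library was not computed, and the study states average depths only.

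Coordinates were made 1-based. Lists were compared in Python 3.11.15 by an overlap of at least 1 base, and shares have 95% Clopper-Pearson intervals. Genes were placed by their 5′ end. Raw counts of 5 WT and 4 Setd8-LKO libraries, with the authors' scaling as offsets, were tested with edgeR 4.0.16 (quasi-likelihood, R 4.3.3) after its filter at a minimum count of 10, with Benjamini-Hochberg adjustment over 55450 annotated genes, and genes were called where the adjusted p was below 0.05 and the log2 difference at least 1 in size. DESeq2 1.42.0 served as an alternative. The scripts were tested on simulated data. The methods call the RNA replicates biological, collected on 1 date, so p-values measure the spread between these livers. Named genes were the 5 largest rises and 5 largest falls per territory among called genes whose groups did not overlap, with Kmt5a and Lmna; islands were the 5 most extreme of each kind. Family clusters in 1 segment, and shared features of named genes, were chosen after their values were seen. The comparison, gene lists and tests were chosen with earlier results of these data known. Some items that these rules name are not reported here.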

Additional observations from a re-analysis of the deposited data

Results flagged for a closer look

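Of 81 groups of libraries examined, 2 held a library far from the others, and the 95% critical value of Dixon's test used here gives about 1 in 20 by chance. Epdr1, in shared territory, had 309 normalized counts in the third library labelled Setd8-LKO against 488 to 520.2 in the other 3. Pcdh7, in an opened gap, had 13.3 in the second WT library against 28.1 to 32.7 in the other 4.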

How the results depend on the processing

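The lists carry no replicates, so the alternatives below change only how islands were compared. The share of WT islands kept, 82.3%, became 78.1% when at least 50% of the island had to be covered, 68.6% when 50% of both had to be shared, 86.0% when an island nearer than 100 kb counted, 85.5% without the lowest 25% of each list by score, and 95.1% with the WT list reduced to the length of the Setd8-LKO list. Gained islands, 4.68%, became 35.0% with 50% of both shared, 3.21% nearer than 100 kb and 17.1% with the reduced WT list. WT base pairs kept, 85.5%, became 86.2% after joining islands over at most 60 kb, 86.0% on autosomes and 91.2% with the reduced list, and the Setd8-LKO length in percent of WT, 89.1%, became 89.6%, 89.5% and 100.0%. Lost islands, edges and gaps made up 44.9%, 43.6% and 11.5% of WT-only length without the lowest 25%, 33.3%, 49.5% and 17.3% after joining, and 11.8%, 64.8% and 23.3% with the reduced list. Joining left 98 split and 19 joining islands, and inward moves were 84.0% of shifts over 100 kb. Protein-coding genes placed by any overlap numbered 886 in WT-only and 199 in LKO-only territory, and 52 genes lay whole in LKO-only territory. Over all annotated genes the numbers were 8206 shared, 1927 WT-only and 381 LKO-only.

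With DESeq2 size factors over the listed genes, 891 genes were called higher, with 54 in shared, 19 in WT-only and 0 in LKO-only territory. With any overlap of the gene body, WT-only territory held 74 higher and 23 lower genes and LKO-only territory 17 higher. With the run label as a term, 2 LKO-only genes were higher. Leaving out single libraries gave 7 to 10 lower genes in WT-only territory, with 7 without WT replicate 1, and 1 to 5 higher genes in LKO-only territory, with 1 without Setd8-LKO replicate 1, 5 without Setd8-LKO replicate 3 and 2 without any other. Of the 41 named genes, 27 were called under every alternative run and 0 reversed. For the summary values, 139 results by setting stayed within a set margin of the main value and 53 moved beyond it. A move here is a change in size and does not mean a change of direction.

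With the replicate number as a block over libraries 1 to 4, 1276 genes were higher and 928 lower, against 1756 and 1194 without the block in the same 8 libraries. The block gave 18 lower genes in shared and 6 in WT-only territory and 1 higher in LKO-only territory, where the same libraries without the block gave 2. Deviations of same-numbered libraries correlated at -0.01, -0.11, -0.15 and 0.07, and only number 4 correlated best with its own number, so the numbers are only names.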
